A study of Mus musculus with 6 samples.

Results

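The sorting nexins are proteins that carry a PX domain, a fold that binds phosphoinositide lipids and so brings the protein to endosomes. Endosomes receive material taken up from the cell surface and sort it, either back to the surface, to the Golgi or onward to lysosomes for breakdown. Retromer, the trimer of Vps35, Vps29 and a Vps26 subunit, works with several sorting nexins to pull receptors out of the path to the lysosome, and in hippocampal neurons it recycles glutamate receptors and sorts the amyloid precursor protein and its processing enzymes. Snx10 is a small sorting nexin known from osteoclasts and macrophages, where it is needed for endosome and lysosome function and acts together with the V-ATPase, the proton pump that acidifies these organelles. Loss of SNX10 causes osteopetrosis.

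The genes described here are all protein-coding mouse genes named Snx with a number, plus the retromer subunits Vps26a, Vps26b, Vps29 and Vps35. This rule gave 34 of the 52550 gene identifiers, and 34 of the 21819 protein-coding ones. All 34 passed the filter on low counts and were among the 18795 genes tested. By their known domains 12 are SNX-BAR proteins, which add a membrane-bending BAR domain to the PX domain, 6 have the PX domain as their main fold, 5 join it to another module, 4 are SNX-RGS proteins with a regulator of G protein signalling domain in most, 3 are SNX-FERM proteins that read sorting signals in receptor tails, and 4 are retromer subunits. The family was chosen by the difference of Snx10 between the groups in these same libraries. The Snx10 values below are therefore a description, with no p, and Snx10 is left out of the counts of genes that passed a test.

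Hippocampal RNA was sequenced from 3 mice with traumatic brain injury (TBI) and 3 sham-operated mice, 24 h after surgery, with 1 library per mouse. All were male mice, C57BL / 6 by the labels and C57B6/J by the study's methods, and 8 to 10 weeks old. The TBI mice received a controlled cortical impact of moderate severity over the right parietal cortex, and the sham mice had the anaesthesia, scalp incision and craniotomy without the impact, so that both groups carry the effects of surgery. The methods say that the hippocampus of the opposite side was exposed as well, and do not say which side entered a library.

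Library totals were 31630936 to 41771872 counts, and the 34 genes together took 0.197% to 0.214% of them. Some libraries stood apart from their group. The TBI1 library held 4909 CPM (counts scaled to a fixed library size and for composition) of 10 striatal neuron markers summed, against 156 to 197 in the sham libraries and 181 to 240 in TBI2 and TBI3. The 10 hippocampal neuron markers summed to 783 to 1083 CPM in sham and 473 to 720 CPM in TBI, with TBI1 lowest, and 9 of 10 had a log2 fold change below 0, with a median of -0.99. The Sham2 library had 3103 CPM of 10 oligodendrocyte markers, where the other 5 libraries had 9095 to 11159. Choroid plexus markers summed to 51.2 CPM in Sham2, 240 in TBI1 and 258 in TBI3, and to 2017 to 2344 in the remaining 3 libraries. Of the 8 astrocyte markers 5 (S100b, Aldoc, Slc1a3, Gja1 and Slc1a2) were lowest in Sham2, while Gfap, which injury is known to induce, was highest there, at 4055 CPM against 541 to 1478 in the other 5 libraries. Aqp4 was also highest in Sham2, at 401 CPM against 170 to 381. The myeloid receptor Cd14 was highest in Sham2 as well, at 29.7 CPM against 2.39 to 14.2. Among the 8 markers of infiltrating myeloid cells, S100a8, S100a9 and Ccr2 were also highest in Sham2, and Ly6c2, Lyz2, Plac8 and Ms4a7 in TBI2. Gfap and Cd14 were picked out after their values were seen. The 6 thalamic markers summed to 92.2 to 471 CPM in sham and 106 to 700 CPM in TBI, highest in TBI3 and Sham3, and all 6 had a log2 fold change above 0. In whole tissue, fewer cells of a type and less RNA per cell cannot be told apart.

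The start of Snx10 lies on chromosome 6 of GRCm38, at 51523901, and the gene runs on the plus strand to 51590679, with 7 annotated transcripts and 9300 exonic bases. Its closest relative, Snx11, lies on chromosome 11, from 96767555 to 96777559 on the minus strand, with 4232 exonic bases. RefSeq gives Snx10 promoter windows for 3 start sites. The first window of each gene is shown, since these relatives were compared within each library below. The sequences are RefSeq's on GRCm38.p6, 250 bases read 5′ to 3′ on the gene's strand, and capitals mark the GC box GGGCGG, searched on both strands.
Snx10, chr6:51523653-51523902, plus strand: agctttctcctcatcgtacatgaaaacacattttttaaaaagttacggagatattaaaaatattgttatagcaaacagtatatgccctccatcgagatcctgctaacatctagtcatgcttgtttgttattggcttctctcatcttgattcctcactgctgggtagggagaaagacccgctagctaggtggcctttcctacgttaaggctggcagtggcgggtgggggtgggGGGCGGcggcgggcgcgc
Snx11, chr11:96777556-96777805, minus strand: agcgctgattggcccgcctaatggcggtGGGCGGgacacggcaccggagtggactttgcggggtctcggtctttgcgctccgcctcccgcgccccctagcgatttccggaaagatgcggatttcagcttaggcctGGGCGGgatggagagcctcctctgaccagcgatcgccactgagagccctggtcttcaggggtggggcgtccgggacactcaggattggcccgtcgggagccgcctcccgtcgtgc

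The Snx10 window was 48.4% G and C with 11 CpG dinucleotides, and the Snx11 window 67.6% with 25. The other windows of Snx10 were richer in G and C, the second at 73.6% with 35 CpG dinucleotides, 3 GC boxes and an AP-1 match, and the next at 61.2% with 17 CpG dinucleotides. Over all 32851 promoter windows the medians were 52.4% and 6. RefSeq promoter windows were found for 24 of the 34 genes, the others being Snx2, Snx9, Snx15, Snx16, Snx20, Snx24, Snx27, Snx31, Snx32 and Vps35. A GC box stood in a window of 18 of these 24 genes (75%), where 35.4% of all 27025 genes with a window held one. The first windows of these 24 genes had medians of 64.4% G and C and 20.5 CpG dinucleotides, above those of all windows. The part of this composition in the GC box share was not tested. The TATA box letters TATAAA were found in 1 of the 24 (4.17%), against 14.3% of all genes. The E-box CACGTG, the core of the lysosomal CLEAR element, was found in 4 of 24 (16.7%), against 6.86% of all genes. The AP-1 letters TGANTCA were in 2 of 24 and 7.82% of all genes, and the CRE letters TGACGTCA in 0 of 24 and 1.77%. These matches describe the letters of the windows and not binding.

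Snx10 stood at 58.0, 58.6 and 59.4 CPM in Sham1, Sham2 and Sham3, from 2348, 2351 and 2279 counts. In TBI1, TBI2 and TBI3 it stood at 103, 138 and 101 CPM, from 4211, 4380 and 3611 counts. All 3 TBI libraries lay above all 3 sham libraries, and TBI2 lay above the other TBI libraries. Group means were 58.6 ± 0.69 CPM in sham against 114 ± 20.9 CPM in TBI (SD, n = 3), a fold of 1.95, and between the highest sham and the lowest TBI library lay a factor of 1.71. On the log2 scale the fold change was 0.96 (SE 0.15). Without TBI2, which had the highest level, the log2 fold change was 0.80, and without TBI1, the library with striatal markers, 1.03.

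The sham libraries were close to each other for this gene. Its coefficient of variation in sham was 1.18%, the lowest of the 34, where the median was 9.84% over the family and 19.2% over all tested genes. A choice by group difference favours genes with little spread within groups, so this rank is a description and supports nothing. Sham2, which held few oligodendrocyte and choroid plexus transcripts, lay between the other sham libraries in Snx10. Scaled by exon length, which allows levels of different genes to be set side by side, Snx10 stood at 6.31 ± 0.075 CPM per kb in sham against 12.3 ± 2.24 CPM per kb in TBI (SD, n = 3). By the sham level per kb it was 24th of 34 in the family. Few of its 50-base words, 0.16%, occurred in the transcripts of another gene, and no exon of another gene overlapped its exons.

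Because Snx10 is known from myeloid cells, the markers of microglia and of infiltrating myeloid cells are given beside it. The 10 microglial markers summed to 521, 623 and 462 CPM in Sham1 to Sham3 and to 934, 620 and 466 CPM in TBI1 to TBI3. All 10 had a log2 fold change above 0, with a median of 0.34, and in edgeR's quasi-likelihood test 0 had an unadjusted p under 0.05. No defining marker of the list was at 0 in every library. TBI1 had the most microglial RNA and TBI2 the most Snx10, while TBI2 and TBI3 had microglial sums inside the sham range with 138 and 101 CPM of Snx10. With each of the 10 markers weighted equally, as the mean of log2(CPM + 0.5) relative to each gene's sham mean, TBI1 at 0.86 and TBI2 at 0.34 lay above all sham libraries, which ran from -0.19 to 0.12, and TBI3 at -0.09 lay among them. The 8 markers of infiltrating myeloid cells summed to 16.4 to 75.6 CPM in sham and 23.5 to 48.7 CPM in TBI, with 4 above and 4 below a log2 fold change of 0. The part of these cells in the Snx10 values was not tested.

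**Figure D1:**
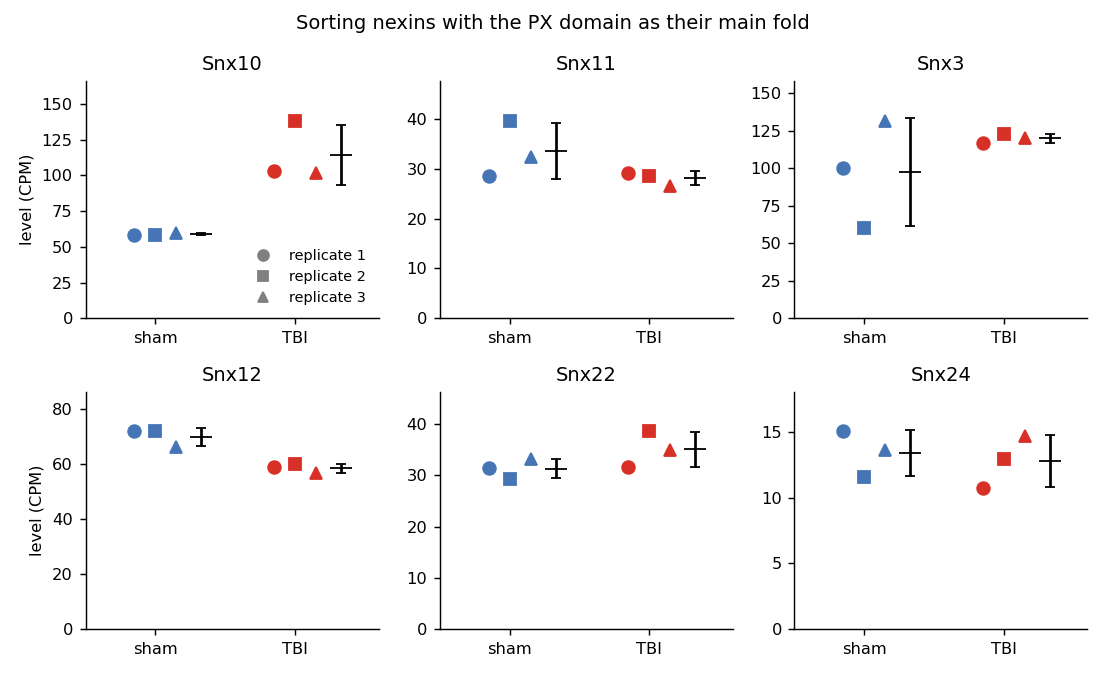
Level of the 6 sorting nexins with the PX domain as their main fold, in CPM on a linear axis from 0, with 1 panel per gene, 1 point per library shaped by replicate number, and beside them a line at the group mean with a bar of 1 SD to each side. Snx10 sits at 58.0 to 59.4 CPM in sham and 101 to 138 CPM in TBI, Snx12 is lower in all TBI libraries, and the other 4 overlap.

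Of the other 33 genes of the family 0 passed the threshold in edgeR's quasi-likelihood test with Benjamini-Hochberg adjustment over all genes. The threshold asked for a change over 1.5-fold, an adjusted p under 0.1 and an unadjusted one under 0.05. The test passed 0 of 18795 genes (0.0%). With DESeq2's defaults 46 of 28118 genes passed (0.164%), and again 0 of the 33. Among the 33 genes 1 had an unadjusted p under 0.05 in edgeR, Snx12, where 4.29% of all tested genes did, 2.16% on the higher side in TBI and 2.13% on the lower, so that the count was near the background.

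For the other 33 genes the log2 fold changes had a median of 0.02, with 18 above 0 and 15 below, and ran from -0.51 for Snx20 to 0.42 for Snx8. Over all tested genes the median was 0.01. Summed, they took 1863 to 1999 CPM in the sham libraries and 1964 to 2004 CPM in the TBI libraries, and these ranges overlap. None of the 33 reached a change of 1.5-fold, where 16.0% of all tested genes did. The family also varied less within sham, with a median coefficient of variation of 9.84% against 19.2%. Its part in this difference was not tested. The adjusted p-values of the 33 in edgeR's quasi-likelihood test were 0.98 or above.

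**Figure D2:**
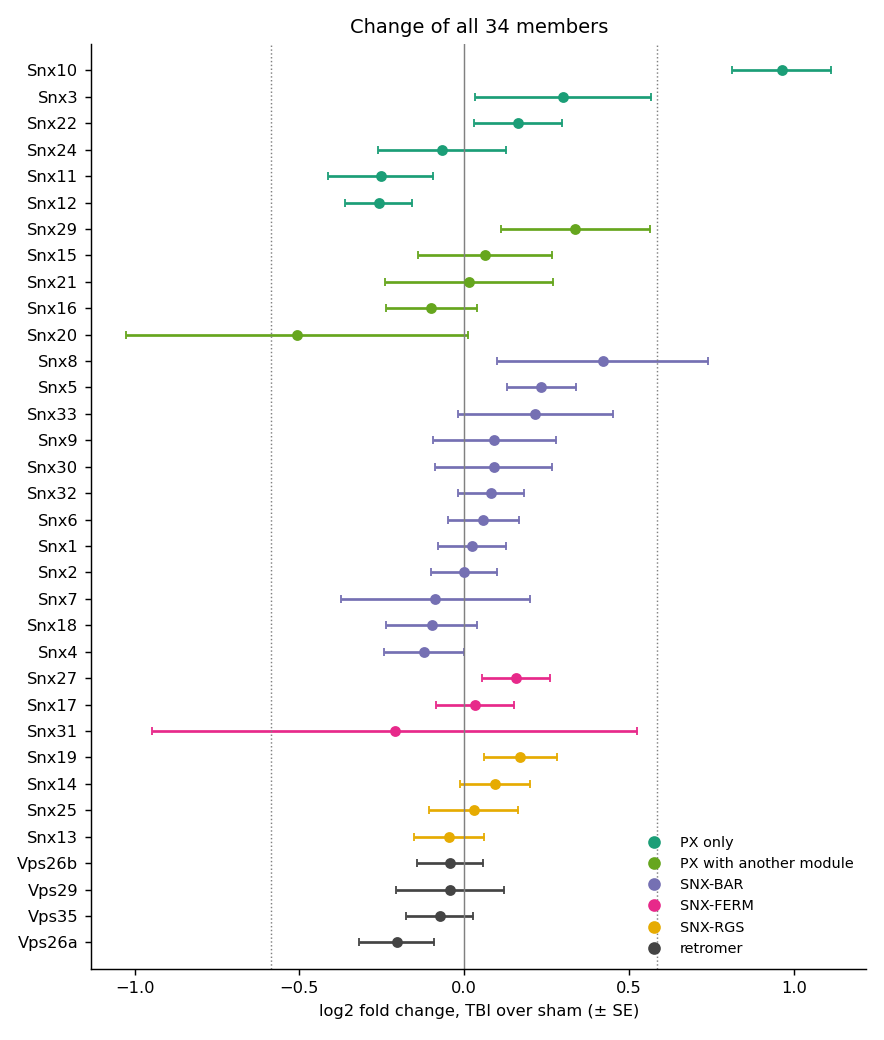
Log2 fold change of TBI over sham for all 34 genes, as points with bars of 1 SE from edgeR, coloured by protein class. Snx10 stands at 0.96 and the other 33 lie between -0.51 (Snx20) and 0.42 (Snx8).

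Leaving Snx10 aside, all TBI libraries lay above all sham libraries in 6 of the 33 genes, where 4.77% of tested genes did so, and in 2 all lay below, against 5.45%. The 6 higher ones were Snx5, Snx14, Snx19, Snx27, Snx29 and Snx32, and the lower ones were Snx12 and Vps26a. These 6 of 33 were above the background share, but the gaps were narrow. In these 6 genes the gap from the highest sham to the lowest TBI library was a factor of 1.006 to 1.107. Genes of one family are measured in the same 6 libraries and are not replicates of each other.

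Retromer core subunits had log2 fold changes below 0 in 4 of 4 genes, with a median of -0.06, where 9133 of all 18795 tested genes were below 0, and none passed the test. The fold change of Vps29 turned above 0 without Sham1 or without TBI1. Vps35, the scaffold of the trimer, stood at 257, 238 and 243 CPM in sham and 224, 251 and 226 CPM in TBI, and the groups overlapped (log2 fold change -0.07, SE 0.10). Vps26b, the Vps26 form enriched in brain, stood at 141 ± 7.92 CPM in sham against 136 ± 1.47 CPM in TBI (SD, n = 3), a log2 fold change of -0.04 (SE 0.10). With 1 library left out, the log2 fold change of Vps35 ran from -0.13 to -0.04 and that of Vps26b from -0.10 to -0.02. The other arrestin-like form, Vps26a, stood at 64.4, 77.4 and 74.3 CPM in sham and at 62.8, 62.7 and 62.0 CPM in TBI. All TBI libraries of Vps26a lay below all sham libraries, with Sham1 close to them. Its log2 fold change was -0.21 (SE 0.11), with an adjusted p of 0.98 in edgeR's quasi-likelihood test. Vps29, the phosphoesterase-fold subunit that binds regulators such as TBC1D5, stood at 131, 89.0 and 120 CPM in sham and 102, 114 and 114 CPM in TBI. Sham2 was lowest and Sham1 highest, with the TBI libraries between them. Its log2 fold change was -0.04 (SE 0.16), and 0.079 without Sham1.

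Scaled by exon length, retromer was among the most abundant of these genes. Sham levels were 27.6 ± 1.07 CPM per kb for Vps35, 27.6 ± 1.55 for Vps26b, 25.2 ± 2.37 for Vps26a and 18.5 ± 3.57 for Vps29 (SD, n = 3), and Vps35 and Vps26b differed by less than their spread. The exons of Vps29 include 6148 bases over 9 transcripts, so that long, rarely used exons count fully toward the length, and 5.53% of them overlap Fam216a on the other strand. The strand setting of the counting was not given in the sources used here.

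The SNX-BAR proteins form the tubules in which cargo leaves the endosome. Snx1 and Snx2 pair with Snx5, Snx6 or the neuronal Snx32 to make the complex that bends the membrane. Snx5 stood at 87.7, 77.7 and 88.2 CPM in sham and at 99.8, 97.7 and 101 CPM in TBI. All 3 TBI libraries were higher than the sham libraries, and Sham2 was the lowest. The log2 fold change of Snx5 was 0.23 (SE 0.11), with an unadjusted p of 0.064 and an adjusted p of 0.98 in edgeR's quasi-likelihood test. Its partner Snx1 stood at 90.1 ± 3.84 CPM in sham against 91.6 ± 4.38 CPM in TBI, and Snx2 at 71.6 ± 3.41 and 71.5 ± 1.59 CPM (SD, n = 3). Snx6 stood at 46.0 ± 2.29 and 47.9 ± 1.92 CPM. These 3 differed between the groups by less than the spread within them, with log2 fold changes of 0.02, -0.0017 and 0.06. Snx32 stood at 48.8, 48.8 and 51.3 CPM in sham and 52.9, 51.7 and 52.7 CPM in TBI, a log2 fold change of 0.08 (SE 0.10), with the groups just apart. Of its exonic bases 13.2% overlap Cfl1 on the other strand.

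Among the remaining SNX-BAR genes, Snx4 acts with Snx7 and Snx30 in recycling and autophagy, Snx8 in endosome-to-Golgi transport, and Snx9, Snx18 and Snx33, which carry an SH3 domain, in endocytosis and membrane remodelling. Snx8 stood at 10.8, 11.8 and 21.5 CPM in sham and 14.8, 20.2 and 24.0 CPM in TBI. Its Sham3 library lay with the TBI libraries, and the log2 fold change of 0.42 (SE 0.32) was the highest of the 33. Without Sham3 the log2 fold change of Snx8 was 0.79 and without Sham1 0.24. Snx7 stood at 21.8, 15.5 and 15.5 CPM in sham and 23.3, 13.6 and 12.7 CPM in TBI, with a high library in each group, and without TBI1 its log2 fold change went from -0.09 to -0.42. Sham and TBI means of Snx33 were 13.05 ± 3.25 and 15.1 ± 1.90 CPM (SD, n = 3), and at 2.85 CPM per kb it had the lowest sham level of the class, with Snx7 at 2.86. Snx2 had the highest, 26.5 ± 1.26 CPM per kb. Snx4, Snx9, Snx18 and Snx30 had log2 fold changes of -0.12, 0.09, -0.10 and 0.09, and their groups overlapped. With 1 library left out, that of Snx4 ran from -0.21 to -0.048 and that of Snx18 from -0.19 to -0.051.

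Snx3, which recruits retromer to early endosomes for the Wnt carrier Wntless and the transferrin receptor, had the highest level of the family per length, 68.9 ± 25.4 CPM per kb in sham against 84.8 ± 2.10 CPM per kb in TBI (SD, n = 3). Its library values were 100, 60.2 and 132 CPM in sham and 117, 123 and 120 CPM in TBI. Sham2 was far below every other library and Sham3 above all TBI libraries. The log2 fold change of 0.30 (SE 0.27) became 0.05 without Sham2 and 0.57 without Sham3.

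Snx12, the closest relative of Snx3, stood at 72.0, 72.1 and 66.3 CPM in sham and at 58.9, 60.0 and 56.8 CPM in TBI. Every TBI library lay below every sham library. The means were 70.1 ± 3.28 and 58.6 ± 1.61 CPM (SD, n = 3), a log2 fold change of -0.26 (SE 0.10), with an unadjusted p of 0.039 and an adjusted p of 0.98 in edgeR's quasi-likelihood test. The log2 fold change lay between -0.30 and -0.23 under all 17 alternative fits, but leaving out any 1 library raised the unadjusted p of edgeR to between 0.052 and 0.12. It was 0.060 with DESeq2's defaults and 0.087 with the replicate number as a block in edgeR. It was 0.018 with DESeq2 without independent filtering, and 0.038 to 0.047 in edgeR with the other scalings, filters, count scale and dispersions. Snx12 lies on chromosome X, from 101097786 to 101222563 on the minus strand, and only 0.68% of its 50-base words occurred in another gene.

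Snx11, the closest relative of Snx10, stood at 28.6, 39.7 and 32.4 CPM in sham and at 29.2, 28.6 and 26.6 CPM in TBI. Sham2 was the highest library, and Sham1 lay among the TBI libraries. Its log2 fold change was -0.25 (SE 0.16), with an adjusted p of 0.98 in edgeR's quasi-likelihood test, and -0.12 without Sham2. Of its exonic bases 16.2% overlap the antisense gene Gm11537, and 15.1% of its 50-base words occurred in another gene. Snx22 stood at 31.4 ± 1.94 CPM in sham against 35.1 ± 3.49 CPM in TBI (SD, n = 3), but 28.5% of its exonic bases overlap Ppib on the other strand, so its counts are uncertain. Snx24 stood at 13.5 ± 1.76 and 12.8 ± 1.99 CPM, and was the lowest of this class by sham level, at 5.48 CPM per kb.

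The SNX-FERM proteins couple cargo to recycling. Snx27, whose PDZ domain binds AMPA and NMDA receptor subunits and the beta-2 adrenergic receptor and hands them to retromer, stood at 144, 151 and 154 CPM in sham and 180, 164 and 158 CPM in TBI. The groups did not overlap, but Sham3 and TBI3 nearly met. The log2 fold change of Snx27 was 0.16 (SE 0.10), or 0.10 without TBI1, with an adjusted p of 0.98 in edgeR's quasi-likelihood test. Snx17, which recycles integrins and members of the LDL receptor family through the Commander complex, stood at 84.5 ± 2.86 CPM in sham against 86.5 ± 9.19 CPM in TBI (SD, n = 3), and at 27.3 CPM per kb had the highest sham level of the 3. Snx31, known from the bladder epithelium, was low, with 9, 47 and 42 counts in sham and 44, 23 and 12 in TBI.

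Several SNX-RGS proteins sit at contacts between the endoplasmic reticulum and endosomes or lipid droplets. Snx14, whose loss causes a cerebellar ataxia in humans, stood at 46.5, 42.9 and 48.2 CPM in sham and 48.6, 49.8 and 48.5 CPM in TBI. Snx19 stood at 42.3, 43.6 and 40.7 CPM in sham and 49.9, 44.1 and 48.3 CPM in TBI. Both had all TBI libraries above the sham libraries by small gaps, with log2 fold changes of 0.09 (SE 0.11) and 0.17 (SE 0.11). That of Snx14 was 0.047 without Sham2. For Snx14, 8.92% of the exonic bases are shared with Gm20537 on the same strand. Snx13 stood at 90.6 ± 5.68 and 87.8 ± 3.93 CPM and Snx25 at 58.4 ± 5.43 and 59.6 ± 6.69 CPM in sham and TBI (SD, n = 3). By sham level, Snx25 was the highest of the 4 at 13.2 CPM per kb and Snx19 the lowest at 6.28 CPM per kb.

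Of the 5 genes that join the PX domain to another module, Snx29 stood at 8.99, 6.33 and 10.4 CPM in sham and 11.2, 10.7 and 10.5 CPM in TBI. The groups of Snx29 were just apart, with a log2 fold change of 0.34 (SE 0.23), which was 0.16 without Sham2, the lowest library. Snx20, which binds the selectin ligand PSGL-1 and belongs to leukocytes, had 57, 137 and 84 counts in sham and 109, 31 and 45 counts in TBI. Its log2 fold change of -0.51 (SE 0.52) was the lowest of the family, and Sham2, its highest library, also had the highest sum of infiltrating myeloid markers, whose part in it was not tested. The log2 fold change of Snx20 was -0.13 without Sham2 and -1.06 without TBI1. Snx15, whose second domain is a microtubule interacting and trafficking domain, stood at 31.7, 32.1 and 25.5 CPM in sham and 39.3, 28.4 and 25.5 CPM in TBI. TBI1 was its highest library, and without it the log2 fold change of 0.06 became -0.14. Snx21, the closest relative of Snx20, varied within both groups, with 27.9 ± 6.70 CPM in sham against 28.2 ± 7.58 CPM in TBI (SD, n = 3). Snx16, which takes part in the traffic of the EGF receptor, stood at 34.5 ± 3.85 and 32.2 ± 2.14 CPM and had the highest sham level of the 5, at 13.1 CPM per kb.

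**Figure D3:**
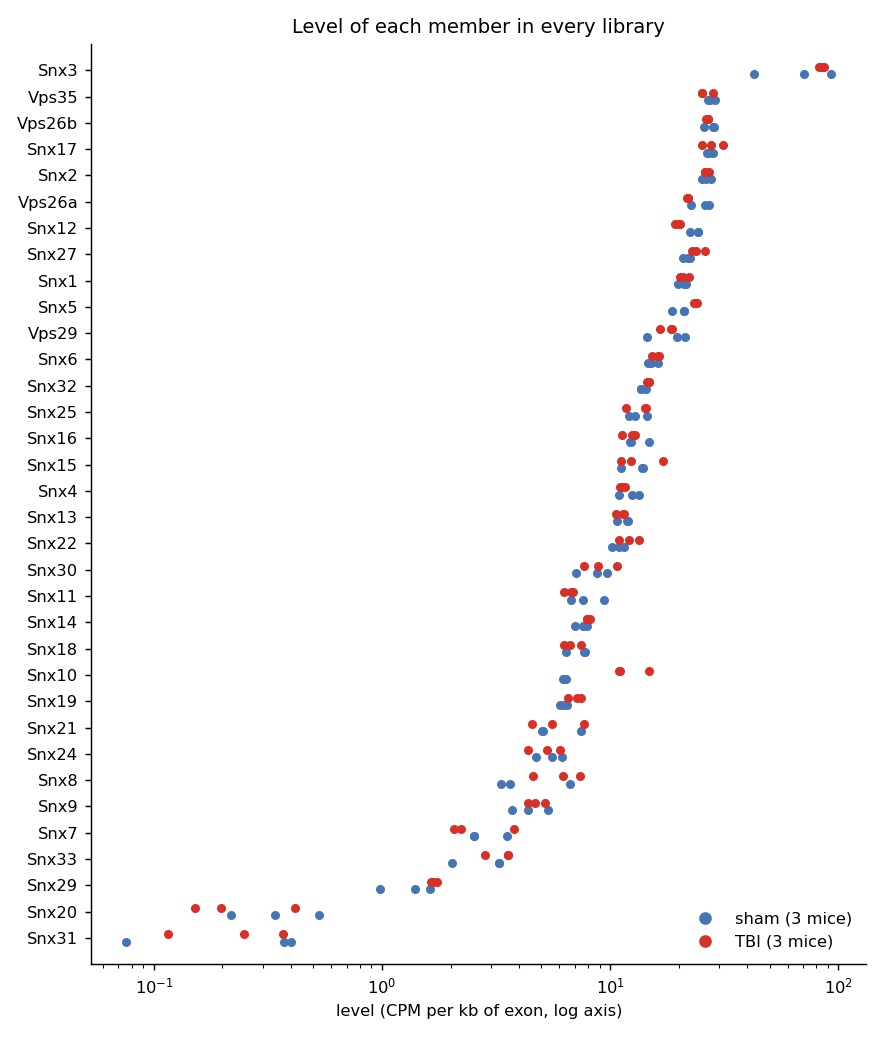
Level of each of the 34 genes in every library, in CPM per kb of exon on a log axis, with genes ordered by sham mean and sham and TBI libraries in separate colours. Levels run from 68.9 CPM per kb for Snx3 to 0.28 CPM per kb for Snx31 in sham, and Snx10 moves from 6.31 CPM per kb in sham to 12.3 CPM per kb in TBI.

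Most neighbours in the order of levels per length were close together. Vps35, Vps26b, Snx17 and Snx2 followed Snx3 at 27.6, 27.6, 27.3 and 26.5 CPM per kb in sham, and no neighbours in this run differed beyond their spread. At the bottom, Snx29 stood at 1.33 ± 0.32, Snx20 at 0.36 ± 0.16 and Snx31 at 0.28 ± 0.18 CPM per kb (SD, n = 3), and Snx20 and Snx31 did not differ beyond their spread. The sham coefficient of variation was under 5% in 10 genes and over 20% in 8. Sham2 was the highest library in 9 of the 34 genes and the lowest in 10, more often at an end than any other library.

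Ratios of related genes within a library do not depend on how the libraries were scaled. Among 11 pairs of relatives without Snx10, 5 had ratios that did not overlap between the groups, and 2 of the 11 share Snx5. Over single tested genes the share without overlap, in either direction, was 10.2%, and no such share was computed for pairs. With 3 against 3 mice an exact permutation test cannot give a two-sided p below 0.10, and after Benjamini-Hochberg adjustment over the 11 pairs the smallest was 0.22, so none passed. Snx10 per Snx11, each per length, was 0.923, 0.672 and 0.835 in sham against 1.61, 2.20 and 1.74 in TBI, a difference of 1.19 in log2 ratio, given as a description. Snx10 thus stood below Snx11 per length in every sham library and above it in every TBI library. Not scaled by length, Snx10 was above Snx11 in every library, in sham at 58.0 to 59.4 against 28.6 to 39.7 CPM. The crossing thus depends on dividing by exon lengths of 9300 and 4232 bases, in which every annotated exon counts fully.

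Among pairs without Snx10, the ratio of Snx3 to Snx12 was 2.91, 1.75 and 4.15 in sham against 4.15, 4.28 and 4.41 in TBI. The highest sham value and the lowest TBI value were almost equal, and the difference in log2 ratio was 0.63, or 0.30 without Sham2. Snx5 per Snx6 was higher in TBI by 0.18 and Snx5 per Snx32 by 0.16 in log2 ratio. The first of these was 0.08 without Sham2. Snx9 per Snx18 was higher by 0.20, or 0.03 without Sham1. Snx13 per Snx14 was 1.57, 1.52 and 1.51 in sham against 1.33, 1.41 and 1.43 in TBI, lower by 0.14. The ratio of the Vps26 forms, Vps26a per Vps26b, was 0.795, 0.948 and 1.01 in sham against 0.831, 0.814 and 0.806 in TBI, with Sham1 below the TBI libraries.

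**Figure D4:**
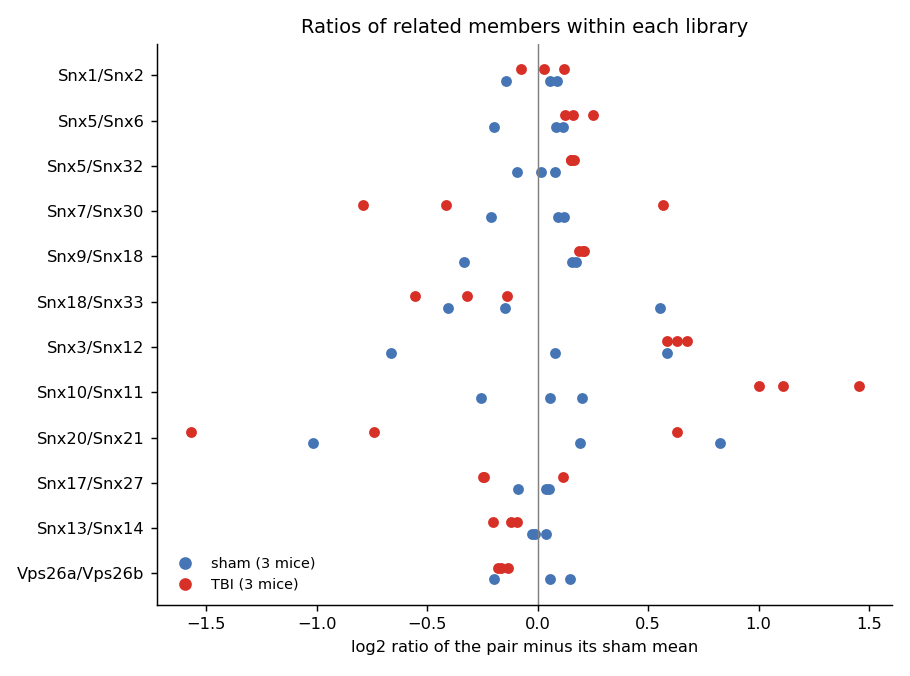
Log2 ratio of each of 12 pairs of related genes in every library, minus the mean of the sham libraries, with sham and TBI points in separate colours. The ratio of Snx10 to Snx11 lies 1.19 higher in TBI, and Snx3 per Snx12 has the widest sham spread among the pairs whose groups do not overlap.

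Retromer works with the actin-building WASH complex and a set of regulators, and these were counted from lists drawn up with the family. Of 10 genes of the WASH complex and its retromer regulators 6 had log2 fold changes above 0 and 4 below, with a median of 0.05. In the Commander complex, which recycles Snx17 cargo, 10 of 15 were above 0 and 5 below, with a median of 0.10. The 17 cargo receptors had 9 above and 8 below (median 0.03), and 20 genes of early endosomes and the lipid PI3P had 9 above and 11 below (median -0.03). The medians of these lists did not keep their sign when 1 library was left out. Commander stood at -0.003 without TBI3, with 7 above and 8 below, WASH at -0.003 and the cargo receptors at -0.08 without TBI1, and the early endosome genes at 0.002 without TBI2. None of these 62 genes was called in edgeR's quasi-likelihood test or by DESeq2, and 0 had an unadjusted p under 0.05 in edgeR.

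Washc2, the WASH subunit that binds Vps35, stood at 92.0, 73.1 and 92.7 CPM in sham and 78.1, 88.3 and 166 CPM in TBI, so that TBI3 alone was high, and its log2 fold change of 0.37 (SE 0.30) became -0.053 without TBI3. Ankrd27, a guanine nucleotide exchange factor that binds Vps29, stood at 26.4 ± 1.89 CPM in sham against 22.4 ± 2.79 CPM in TBI (SD, n = 3), with no overlap and a log2 fold change of -0.24 (SE 0.15). Ehd1, an ATPase of recycling tubules, had a log2 fold change of -0.24 (SE 0.18). With 1 library left out, that of Ankrd27 ran from -0.33 to -0.15 and that of Ehd1 from -0.41 to -0.15. The late endosome GTPase Rab7 had a log2 fold change of 0.11 (SE 0.12). TBI1 alone was high for Rab7, and without it the value was 0.007. Of the Commander genes, Ccdc93 and Commd8 had log2 fold changes of -0.29 (SE 0.18) and -0.33 (SE 0.21), and Commd9 and Vps35l had 0.16 (SE 0.13) and 0.10 (SE 0.11).

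Sorcs1, a Vps10-domain receptor that binds retromer, stood at 12.4, 16.0 and 17.0 CPM in sham and 67.6, 14.6 and 19.7 CPM in TBI. The high value was that of TBI1, the library with striatal markers, and the log2 fold change of 1.17 (SE 0.57) became 0.18 without it. Its relatives Sorcs3 and Sort1 had log2 fold changes of -0.57 (SE 0.29) and -0.28 (SE 0.16). That of Sorcs3 was -0.21 without Sham2, its highest library, and -0.79 without Sham3, and that of Sort1 -0.17 without TBI3, its lowest library, and -0.18 without Sham1. Lrp1, an abundant lipoprotein receptor sorted by Snx17, stood at 447 ± 40.2 CPM in sham against 508 ± 52.8 CPM in TBI (SD, n = 3). At early endosomes Eea1, Becn1 and the PI3P phosphatase Mtmr1 had log2 fold changes of -0.18 (SE 0.12), -0.22 (SE 0.16) and -0.18 (SE 0.12). With 1 library left out these ran from -0.26 to -0.10, -0.35 to -0.15 and -0.27 to -0.12. The groups did not overlap for Mtmr1. Rab5b and Rab5c, the GTPases that mark these endosomes, had log2 fold changes of 0.06 and 0.09. With 1 library left out these ran from 0.007 to 0.096 and from -0.055 to 0.19.

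The V-ATPase, the proton pump with which Snx10 acts in other cells, had 21 of 25 listed genes tested. Of these 3 had log2 fold changes above 0 and 18 below, with a median of -0.16, where 9133 of all 18795 tested genes were below 0. None was called in edgeR's quasi-likelihood test or by DESeq2. In edgeR 1 of the 21 had an unadjusted p under 0.05, near the background of 4.29%. The summed level of the 25 was 4902 to 5395 CPM in sham and 4278 to 4757 CPM in TBI. All TBI libraries lay below all sham libraries in 5 of the 21 genes, Atp6v1g2, Atp6v1a, Atp6ap1, Atp6v0d1 and Atp6v0e2, where 5.45% of all tested genes did so, and in 0 did they lie above. The median became -0.06 without Sham2 and -0.07 without Sham2 and TBI1.

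Atp6v1g2, the stalk subunit found mainly in neurons, stood at 364, 362 and 352 CPM in sham and at 319, 188 and 147 CPM in TBI. The sham libraries were close together and the TBI libraries spread below them, with TBI1 nearest. Its log2 fold change was -0.72 (SE 0.28), with an unadjusted p of 0.037 and an adjusted p of 0.98 in edgeR's quasi-likelihood test, and -1.10 without TBI1. Atp6v1a, the catalytic subunit, stood at 753, 737 and 695 CPM in sham and at 454, 688 and 597 CPM in TBI, with TBI1 lowest (log2 fold change -0.33, SE 0.16, and -0.18 without TBI1). Atp6ap1, an assembly factor of the pump, stood at 158 ± 10.2 CPM in sham against 138 ± 6.33 CPM in TBI (SD, n = 3), and Atp6v1b2, the widely expressed form of the B subunit, at 704 ± 138 and 623 ± 49.1 CPM. The osteoclast subunit Atp6v0d2 had 0 counts in every library but TBI1, which had 12. The hippocampal neuron markers, weighted equally as for microglia, stood at 0.45, -0.41 and -0.04 in Sham1 to Sham3 and at -2.24, -0.24 and -0.63 in TBI1 to TBI3, so that TBI2 lay among the sham libraries. Of the 10 markers 3 had all TBI libraries below all sham libraries, and in edgeR 0 were called and 1 had an unadjusted p under 0.05 on the lower side. Their part in the V-ATPase values was not tested.

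**Figure D5:**
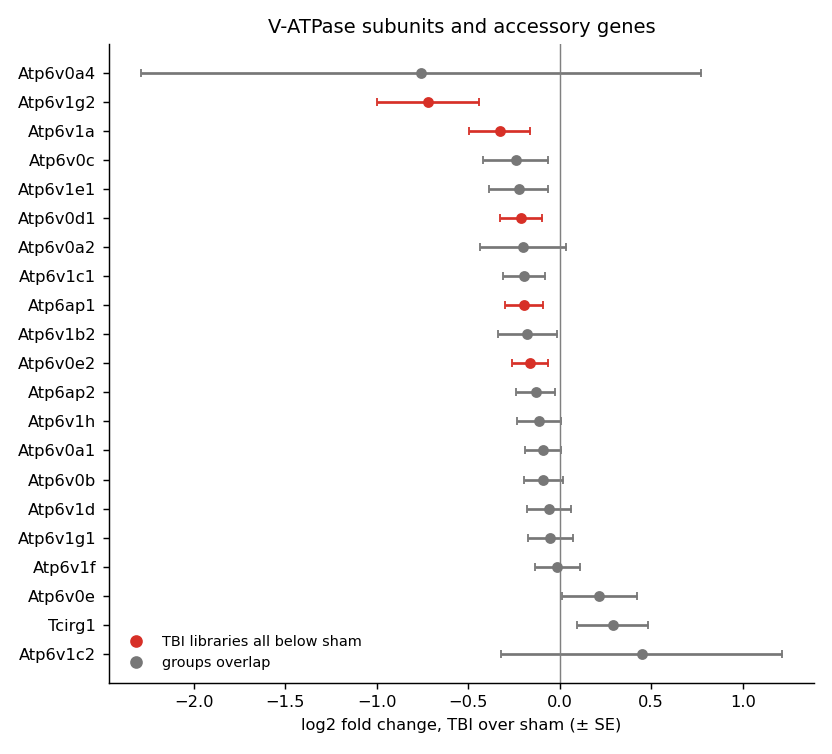
Log2 fold change of TBI over sham for the tested V-ATPase genes, as points with bars of 1 SE from edgeR, with genes whose TBI libraries all lie below the sham libraries in red and those whose groups overlap in grey. Of 21 genes 18 lie below 0 and 5 are red, Atp6v1g2 the furthest of the red ones at -0.72.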

How the data were processed

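RNA was sequenced from the hippocampi of 3 sham and 3 TBI mice. Per the labels and methods, the authors used FastQC for read quality, HISAT2 for alignment to GRCm38 and StringTie for transcript quantification. The deposited files give an estimated count for each gene, whole and not normalized. The annotation release, strandedness and step from coverage to counts are not given in the sources used here. The value 4 occurs 5109 times and 3 occurs 2325 times, so that counts are not single reads and no counting interval is given.

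Of 52550 identifiers 52403 were matched, without their version, to GENCODE vM21, from which exons and coordinates were taken. Genes were filtered with filterByExpr, scaled by TMM (factors 0.970 to 1.025) and tested with the quasi-likelihood test of edgeR 4.0.16 in R 4.3.3, with Benjamini-Hochberg adjustment over 18795 genes. SEs were derived from the F statistic. DESeq2 1.42.0, other scalings, filters, libraries left out and a replicate block were alternatives. The edgeR and DESeq2 fits were also run on simulated counts, whose outcome is not given here. Exact permutation tests used scipy 1.17.1. CPM per kb divides by the union of exons.

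The members and lists were chosen with earlier results of these data known. Described in full are Snx10, Snx11, retromer, members at an unadjusted p under 0.05 or without overlap, the highest and lowest of each class, and in each list up to 3 genes of smallest p and the 2 most abundant. The labels and methods give separate mice per library.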

Additional observations from a re-analysis of the deposited data

How the results depend on the processing

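The deposited counts limit small changes, with 3 mice a group and a common biological coefficient of variation of 0.37 over all tested genes. SEs in the family ran from 0.10 for Vps26b to 0.74 for Snx31, and Snx20 and Snx31 rest on few counts. Log2 fold changes of 20 of the 33 genes other than Snx10 kept their direction in all 17 alternative fits and 13 did not. The Snx10 log2 fold change was 0.80 to 1.04 over these fits, the median of the family 0.004 to 0.045, and no pathway gene was called in any. Over all 34 members the count past the threshold was 1 in both DESeq2 settings, from Snx10 itself, whose difference chose the family, so that nothing is read from it, and 0 among the other 33. At an unadjusted p under 0.05, among the others, there was 1 member (Snx12), and 0 with DESeq2's defaults, 0 with the replicate block and 0 without Sham2 and TBI1, a setting chosen after seeing the data. Leaving out 1 library at a time gave 0 to 1, and without Sham3 the 1 was Snx8. Deviations of same-numbered libraries correlated at -0.10, -0.06 and 0.15, and those of unlike-numbered libraries at -0.18 to 0.21. No pairing by replicate number was seen in these values, and a shared batch was not tested. The block gave a Snx10 log2 fold change of 0.95.

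Without Sham2 and TBI1 the direction turned for Snx15 (-0.085), Snx33 (-0.032), Snx2 (0.016), Snx25 (-0.084) and Atp6v1b2 (0.020). The log2 fold change of Snx2, at 0 within its error, also turned with library totals (0.00117), upper-quartile scaling (0.00628) and at least 10 counts in every library (0.00528), which left Snx31 out. Leaving out 1 library at a time, log2 fold changes ran from -0.020 to 0.24 for Snx9, -0.65 to 0.12 for Snx31, -0.19 to 0.042 for Snx24, -0.14 to 0.18 for Snx15, -0.42 to 0.10 for Snx7, -0.054 to 0.20 for Snx30, -0.053 to 0.099 for Snx17, -0.19 to 0.079 for Vps29, -0.020 to 0.054 for Snx1, -0.040 to 0.034 for Snx2, -0.029 to 0.11 for Snx25, -0.22 to 0.23 for Snx21, -0.055 to 0.19 for Rab5c and -0.053 to 0.57 for Washc2. Differences in log2 ratio ran from -0.047 to 0.073 for Snx1 per Snx2 and -0.60 to 0.075 for Snx7 per Snx30. The cause was not tested.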
